A study of Mus musculus with 8 samples.

Results

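Among the HDAC1 peaks of differentiating mouse embryonic stem cells, 393 combined a high peak score with the absence of an acetylated histone H3 (H3ac) peak on any day mapped. The lowest of them scored 125.15. They were the HDAC1 peaks on chromosomes 1 to 19 and X, chosen by a peak score at or above a set minimum and selected on overlap, since they shared not even 1 base with an H3ac peak of day 2, day 4 or day 6. That is 393 of the 5282 HDAC1 peaks on these chromosomes, and 393 of the 529 that reached the minimum score. Of the rest, 136 strong peaks, which reached the same minimum, overlapped H3ac, 3130 weaker peaks lay without H3ac and 1623 weaker peaks overlapped it. The data are chromatin immunoprecipitation sequencing (ChIP-seq) of 129/Ola embryonic stem cells, which are pluripotent cells of the early embryo, here allowed to differentiate in N2B27, a medium without serum, on a gelatin surface. All groups share this strain, surface and medium. HDAC1 was precipitated on day 2 as a 3 FLAG-HDAC1 protein with an antibody from Sigma, and H3ac on days 2, 4 and 6 with an antibody against acetylated histone H3 from Millipore. There was 1 ChIP library with its input for each of the 4 pairs of target and day, so no value has a replicate, and whether the tagged line was 1 clone is not given in the sources used here. The peak lists hold no gene expression, so the identity of the cells could not be checked against marker genes.

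HDAC1 is an enzyme that removes acetyl groups from histone tails. It does not read DNA itself and is brought to its sites by the Sin3, NuRD and CoREST complexes, which also sit at many active, acetylated promoters. One recruiter of such complexes is REST, a zinc finger repressor that keeps genes of mature neurons low in stem cells and in tissues other than brain. REST binds the RE1 element, which consists of a left part and a right part that are usually separated by a short fixed gap. Acetylated H3 marks active promoters and enhancers.

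Promoters that strong sites without H3ac overlapped and that held an RE1-like sequence are printed here, because the members could be read as sequence only where they met a RefSeq promoter (assembly GRCm38.p6, coordinates of mm10, 250 bases before to 50 bases after a start, 5′ to 3′ on the strand of the gene). Capitals mark the RE1 match, with the left part CAGCACC and the right part GGACAG at a spacing of 2 free bases, searched on both strands with up to 2 mismatches over the 13 fixed letters.
Gm32659 start, chr2:136714289-136714588, minus strand: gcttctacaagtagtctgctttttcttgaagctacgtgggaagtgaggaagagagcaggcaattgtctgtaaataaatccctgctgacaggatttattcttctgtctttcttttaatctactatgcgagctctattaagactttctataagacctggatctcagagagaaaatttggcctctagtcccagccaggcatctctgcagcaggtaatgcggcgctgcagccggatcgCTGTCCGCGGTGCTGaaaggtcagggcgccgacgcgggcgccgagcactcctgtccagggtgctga
Htr5a start, chr5:27841697-27841996, plus strand: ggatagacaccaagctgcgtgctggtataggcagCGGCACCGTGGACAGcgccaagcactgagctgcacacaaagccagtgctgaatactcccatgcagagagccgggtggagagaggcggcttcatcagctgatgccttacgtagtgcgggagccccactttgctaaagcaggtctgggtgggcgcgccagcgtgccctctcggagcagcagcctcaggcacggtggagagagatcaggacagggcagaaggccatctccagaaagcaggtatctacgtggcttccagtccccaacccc
Lexm start, chr4:106617189-106617488, minus strand: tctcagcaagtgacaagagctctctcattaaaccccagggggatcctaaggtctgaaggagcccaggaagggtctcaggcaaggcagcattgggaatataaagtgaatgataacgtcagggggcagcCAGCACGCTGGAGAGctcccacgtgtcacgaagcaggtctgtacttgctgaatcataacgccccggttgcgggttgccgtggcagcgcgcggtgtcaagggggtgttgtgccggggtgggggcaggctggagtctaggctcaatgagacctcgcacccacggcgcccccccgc

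The first of these lies inside Snap25, the gene of a SNARE protein of synaptic vesicle fusion (chr2:136713439-136782428). The HDAC1 peak there, chr2:136714090-136714507 with a score of 434.46, contains an exact RE1 match at chr2:136714340-136714354, which reads on the strand opposite to that of Gm32659. At Htr5a, which encodes a serotonin receptor, the match carries 1 substitution, A2G, with positions counted from 1 at the left end of the motif and the base of the motif given first. It lies within the peak chr5:27841482-27841916, which had a score of 164.39. At Lexm the match carries C7G and C13G and also lies within its peak, chr4:106617132-106617609, with a score of 136.69.

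The member closest to an annotated microRNA hairpin is shown with its sequence. The peak chr17:56241594-56242471, 732.72 in score, covered the start of the non-coding gene A230051N06Rik and ended 517 bp before the hairpin of Mir7b (chr17:56242988-56243098, plus strand). The mature product is printed with its seed, bases 2 to 8, in capitals.
mmu-miR-7b-5p: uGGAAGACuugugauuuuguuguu
The H3ac peaks nearest to this member were 12982 bp away (day 2), 22990 bp away (day 4) and 199641 bp away (day 6).

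Few members met an annotated promoter. Chromosome 18, with 12 members, was not analysed for starts, and of the other 381 members 15 (3.94%) overlapped 17 promoters of 16 genes. The shares were 71 of 133 (53.4%) for strong peaks with H3ac and 155 of 3030 (5.12%) for weaker peaks without H3ac. An exact spaced RE1 was present in 1 of the 17 promoters at members (5.88%), in 0 of 108 at strong peaks with H3ac, in 4 of 170 at weaker peaks without H3ac (2.35%) and in 12 of all 32851 promoters (0.0365%). With up to 2 mismatches the numbers were 3 of 17 (17.6%), 3 of 108 (2.78%), 17 of 170 (10%) and 632 of all promoters (1.92%). The left part CAGCACC alone stood in 17.6% of the promoters at members (3 of 17), in 10.2% at strong peaks with H3ac, in 11.8% at weaker peaks without H3ac and in 7.14% of all promoters. Motifs were counted over the whole promoter, so a motif can lie outside the peak. The left parts in the Chgb and Ntsr2 promoters lay outside their peaks, and that of Gm32659 is part of the spaced match shown above. For the right part GGACAG the shares were 29.4% at members (5 of 17), 13.9% at strong peaks with H3ac, 28.2% at weaker peaks without H3ac and 22.2% of all promoters. Either part overlaps the spaced motif wherever that occurs. For the E box CACGTG, searched separately, the shares were 23.5% at members (4 of 17), 18.5% at strong peaks with H3ac, 11.8% at weaker peaks without H3ac and 7.15% of all. For the E2F-type sequence GGCGGGA they were 29.4% at members (5 of 17), 21.3% at strong peaks with H3ac, 13.5% at weaker peaks without H3ac and 11.3% of all. The 17 promoters are not all separate sequences. Those of Rgl1 and Arpc5 overlap and share an E box, and those of Neurod4 overlap and share an E2F-type sequence. Each shared site is counted in both promoters. Median GC content was 60.7% in the promoters at members, 60.5% at strong peaks with H3ac, 61.3% at weaker peaks without H3ac and 52.7% over all promoters, so all 3 groups of HDAC1 promoters lay above the whole. The part of this base composition in the motif shares was not tested.

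Peak score and H3ac overlap together chose the sites, and what follows on them is description. The score is the value the authors deposited for each peak. Its scale is not stated, it is used here only to rank peaks within the HDAC1 list, and it ends at a ceiling of 3100. Members scored from 125.15 to 3100 with a median of 214.06 (quartiles 146.11 and 531.88). Strong peaks with H3ac had a median of 146.93 and reached 1211.63. All 6 HDAC1 peaks at the ceiling were members, as were 49 of the 50 and 95 of the 100 highest-scoring HDAC1 peaks. The share of HDAC1 peaks without H3ac was 66.2% (95% Wilson interval 64.6 to 67.8%) at scores of 50 to 75 and 63.8% in each of the bins below and above the minimum, 257 of 403 peaks from 100 up to it and 213 of 334 (58.5 to 68.7%) from it up to 250. It was 88.0% (79.2 to 93.3%) at 250 to 500, 94.2% (86.0 to 97.7%) at 500 to 1000 and 97.7% (87.9 to 99.6%), or 42 of 43, at 1000 and over. All intervals in this report cover counting error only, since peaks come from 1 library each and neighbouring peaks are not independent.

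**Figure D1:**
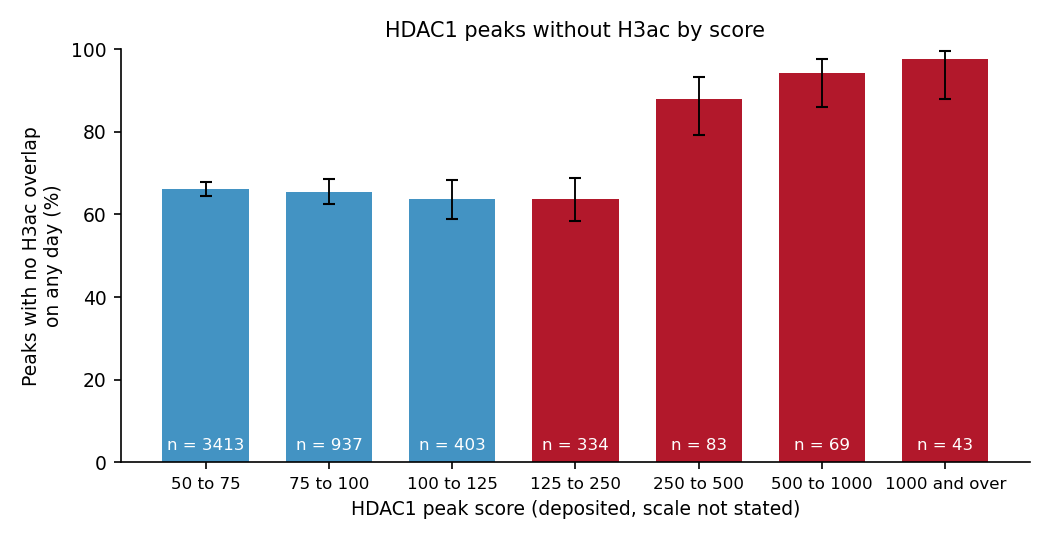
Share of HDAC1 peaks without H3ac overlap on any day (y axis, percent) by deposited HDAC1 score (x axis); red bars are at or above the minimum score of the members, blue bars below it, numbers give the peaks per bin and error bars are 95% Wilson intervals. The share lies between 63.8% and 66.2% up to a score of 250 and reaches 97.7% at 1000 and over.

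At the minimum score, the lowest-scoring members were chr8:24082905-24083203 nearest to Zmat4 with a score of 125.22, chr8:93469837-93469986 nearest to Ces5a with 125.2, and chr9:75393262-75393702 nearest to Mapk6 with 125.15. Just outside it were chr3:112952608-112952935 (124.75, nearest to Amy2b), chr4:152286903-152287318 (124.59, nearest to Hes3) and chr13:31850993-31851349 (124.56, nearest to Gmds). The median width of members was 417 bp (quartiles 343 and 486 bp). Strong peaks with H3ac had a median of 544.5 bp and weaker peaks without H3ac 290 bp.

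The members lay mostly away from gene ends. By the midpoint of the peak, 45 (11.5%, 8.67 to 15.0%) were no more than 1 kb from either end of a gene that codes for protein, 158 (40.2%, 35.5 to 45.1%) were deeper inside a gene and 190 (48.3%, 43.4 to 53.3%) were outside. Strong peaks with H3ac were placed otherwise, with 95 of 136 (69.9%, 61.7 to 76.9%) at a gene end and 14 (10.3%, 6.23 to 16.5%) outside. Weaker peaks with H3ac were similar, with 74.6% (72.4 to 76.6%) at a gene end. The classes were split by H3ac overlap, so this contrast is not independent of the choice of members. Of weaker peaks without H3ac, 12.1% (11.0 to 13.3%) were at a gene end and 44.3% (42.5 to 46.0%) outside, and these intervals overlap those of the members. The gene table gives no exons, introns or UTRs, and a gene end is either end of the gene.

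**Figure D2:**
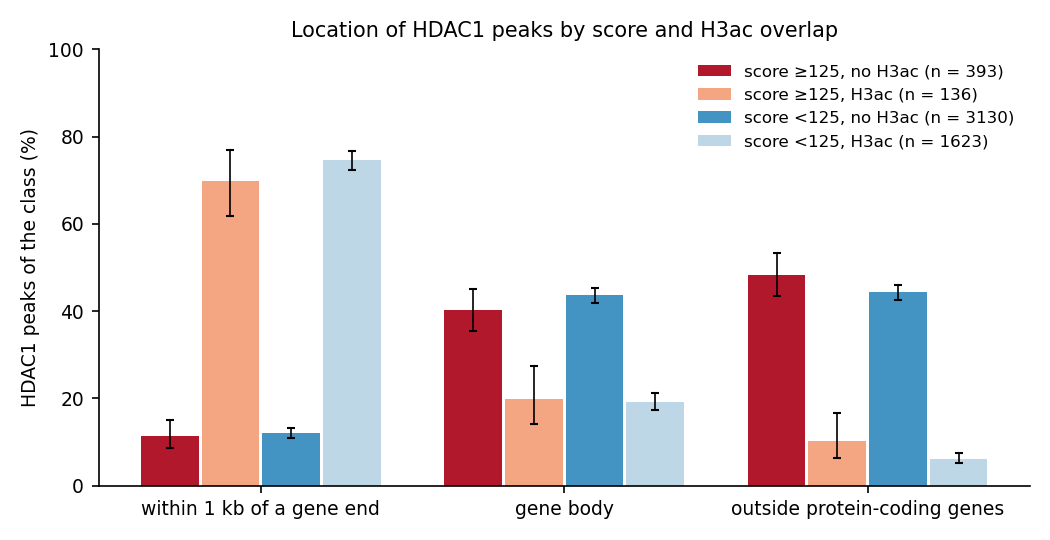
Location of HDAC1 peaks by midpoint (x axis) as percent of the peaks of each class (y axis), with error bars for 95% Wilson intervals. Strong peaks without H3ac (red) resemble weaker peaks without H3ac (blue), and 11.5% of them lie at a gene end against 69.9% of strong peaks with H3ac (orange). The classes were split by H3ac overlap, and 74.6% of weaker peaks with H3ac also lie at a gene end.

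Location also went with score inside the set. When the members were split into 4 groups by score, 5 of the 99 highest-scoring (5.05%) and 19 of the 98 lowest-scoring (19.4%) lay at a gene end, and 61.6% and 37.8% lay outside genes. The RefSeq promoter table gives annotated starts for part of the genes. Within 1 kb of a start lay 35 of 381 members (9.19%, 6.68 to 12.5%), 94 of 133 strong peaks with H3ac (70.7%, 62.4 to 77.7%) and 271 of 3030 weaker peaks without H3ac (8.94%). Because the table is incomplete, these shares are lower bounds. Among members inside exactly 1 gene of known strand (142), the median position was 34.6% of the gene length from the start, and 71 (50%) lay in the part of the gene nearest the start when it was cut into 3 equal parts, with 37 (26.1%) in the part nearest the far end. The same quantity for strong peaks with H3ac had a median of 2.91% (88 peaks) and for weaker peaks without H3ac 37.5% (1233 peaks).

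In all, 188 members (47.8%) had their midpoint in a protein-coding gene. They hit 183 distinct genes, with every gene counted where a midpoint lay in more than 1. A further 59 (15.0%) were outside but within 10 kb, 146 (37.2%) were more than 10 kb from any such gene, and 65 (16.5%) more than 100 kb. Members rarely clustered: 6 (1.53%) lay within 10 kb of another member and 35 (8.91%) within 100 kb. On the X chromosome 6 of 24 HDAC1 peaks were members (25%, 12.0 to 44.9%), against 387 of 5258 on the autosomes (7.36%, 6.69 to 8.10%). Among the X members, chrX:8614325-8614542 (218 bp) and chrX:74856190-74856399 (210 bp) belong to the narrow members described below, and the others were wider.

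Most members lay more than 10 kb from the nearest H3ac peak. No baseline of other genomic positions was computed, and the choice of members removed overlapping sites. Whether these distances are unusual was therefore not tested. The nearest H3ac peak of any day was at a median of 36605 bp (quartiles 10641 and 117987 bp), and 299 members (76.1%, 71.6 to 80.0%) had no H3ac peak within 10 kb. For weaker HDAC1 peaks without H3ac the median was 30789 bp, and 2256 of 3130 (72.1%, 70.5 to 73.6%) had none within 10 kb, so the intervals overlap. By day, the median distance from members was 48258, 64704 and 137325 bp to H3ac of days 2, 4 and 6. The H3ac lists held 17368, 12945 and 5553 peaks on these days, and the part of list length in the longer distances was not tested. The nearest H3ac peak came from day 2 for 195 members (49.6%), from day 4 for 114 (29.0%) and from day 6 for 84 (21.4%). Of the highest-scoring of the 4 score groups 83.8% and of the lowest-scoring 68.4% lay beyond 10 kb of H3ac.

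**Figure D3:**
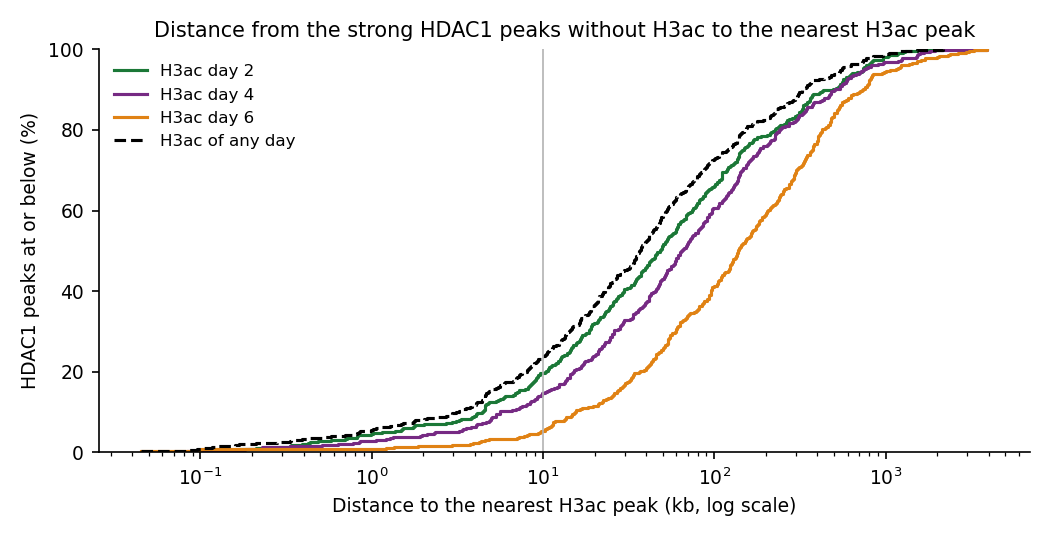
Cumulative percent of the 393 strong HDAC1 peaks without H3ac (y axis) by distance to the nearest H3ac peak (x axis, kb, log scale) of day 2, 4, 6 or any day; the vertical line marks 10 kb. Distances to day 6 H3ac are the longest, with a median of 137325 bp, and 76.1% of the peaks lie beyond 10 kb of H3ac of any day.

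A small number of members bordered on H3ac. Within 1 kb of an H3ac peak lay 22 members (5.60%), against 259 (8.27%) of the weaker peaks without H3ac. There were 18 such neighbours on day 2, with H3ac scores of 57.4 to 300.56 and a median of 81.84. There were 11 on day 4 (median 83.28) and 3 on day 6 (median 186.17). The closest member, chr10:40258426-40258821 near Gtf3c6, a subunit gene of the RNA polymerase III factor TFIIIC, was 45 bp from day 6, 229 bp from day 4 and 424 bp from day 2 H3ac. The next were chr5:118155289-118155659 near Fbxw8, 85 bp from day 4 H3ac, and chr4:134020543-134021068 near Lin28a, 96 bp from day 6, 228 bp from day 4 and 483 bp from day 2 H3ac. The other members among the 5 closest were chr1:152765892-152766415 at the start of Rgl1, 101 bp from day 6 H3ac, and chr1:72255149-72255780, 117 bp from day 2 H3ac and 3708 bp from Pecr. Their scores ranged from 134.58 at Pecr to 695.34 at Lin28a.

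At the other extreme, 5 members were more than 1000 kb from H3ac of any day. The farthest, chr6:77180827-77181172 (score 637.53), lay in Ctnna2, which encodes the alpha-catenin of neurons, 2153.979 kb from H3ac. The others were chr6:68799167-68799511 at 1528.748 kb (score 413.62), chrX:40181532-40181935 at 1219.416 kb (487.33), chr6:74424418-74424962 at 1174.68 kb (608.68) and chr12:94647319-94647689 at 1047.485 kb (441.54). The last is nearest to Flrt2, a gene of a guidance and adhesion receptor, 1044.502 kb away.

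None of the 20 highest-scoring members lay at a gene end, 8 were inside a protein-coding gene and 9 were more than 10 kb from one. Gene ends are the outer ends of a gene, and the Npas4 member described below lay 804 bp from an annotated start inside its gene. The member that ranks 1, chr12:42972773-42973196, had a score of 3100 and lay 1017.396 kb from the nearest protein-coding gene, Immp2l, and 964.407 kb from H3ac. Also at the ceiling were chr18:25668098-25668497 in Celf4, the gene of a neuronal RNA-binding protein, and chr4:151604490-151605357 in Camta1, which encodes a calmodulin-binding transcription activator. The other 3 peaks at the ceiling were outside genes, namely chr18:83543314-83544554, 467.693 kb from Tshz1, chr4:140258839-140259479, 12176 bp from Igsf21, and chr9:52035733-52036447, 11060 bp from Rdx. Igsf21 encodes a synaptic adhesion protein and Rdx the membrane-cytoskeleton linker radixin. The peak near Tshz1 was the widest member at 1241 bp.

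Rank 7 was chr19:4988911-4989423 in Npas4, the gene of a transcription factor induced by neuronal activity, with a score of 2882.57. It lay 804 bp after an annotated start, and the nearest H3ac was 25492, 26002 and 25877 bp away on days 2, 4 and 6. Other genes hit among the 20 were Garnl3 (2660.69), Phf21b (2378.79), Erich1 (2330.02), St8sia1 (2321.19), which encodes a ganglioside sialyltransferase, and Xkr6 (1803.01). Nearest genes at more than 10 kb were Taf1b, Pbx3, Nphp4, Kcnk9 and Gjb5, at 20168 bp for Kcnk9 and 261907 bp for Gjb5. At such distances the nearest gene is a label of position only. Smim17 (4911 bp), Plppr2 (1640 bp) and Lypd5 (5148 bp) were closer.

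Several members at the ends of genes had high scores. Those named here, except for Cacng2, were picked after their values were seen and are not a full ranking. Cacng2, which encodes the AMPA receptor partner stargazin, had the member chr15:78119771-78120250 with a score of 1605.44, and its nearest H3ac was 53267, 53132 and 189577 bp away on days 2, 4 and 6. Gprin1, a gene of neurite outgrowth, had a member with a score of 1500.03, 986 bp before its start and 3122 bp from day 2 H3ac. Tas1r3 had a member with a score of 1294.9 at its far end, 3756 bp after its start and 8097 bp from day 6 H3ac. Xkr7 (995.8) and Rtbdn (816.47) had members 571 and 354 bp after a start. Sst, the gene of the neuropeptide somatostatin, had a member of score 291.4, 421 bp after its start and 38484 bp from H3ac on day 2. Members at the ends of Iqsec3 (515.67) and Scrt1 (420.77), among others, scored higher than that of Sst.

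Gene lists gave a fuller account. Over all 21631 protein-coding genes, 310 (1.43%) had a member in the gene or within 10 kb. The share was 1.15% (248 genes) for strong HDAC1 peaks with H3ac and 10.8% (2328 genes) for weaker peaks without H3ac. The median best score among the 310 genes was 173.69. Long genes offer more room: the median gene length was 17.3 kb over all genes, 32.5 kb over the genes with a member and 14.6 kb over those with a strong peak with H3ac. The part of gene length in the counts below was not tested, and a count restricted to starts is given where it matters.

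Of 53 genes written down as known REST targets, 13 (24.5%) had a member, 3 (5.66%) had a strong HDAC1 peak with H3ac and 27 (50.9%) had a weaker one without H3ac. Together 40 of the 53 had an HDAC1 peak of any kind in or within 10 kb, against 4712 (21.8%) of all protein-coding genes. The 13 genes were reached by 14 members, with a median best score of 446.07, and the list had a median length of 31.5 kb. Counted from annotated starts, 8 of 37 (21.6%) had a member within 10 kb of a start, against 127 of 17274 genes (0.735%). Within 1 kb of either end, 4 of the 13 genes had an H3ac peak on day 2, 1 had one on day 4 and 0 had one on day 6, and 9 had none on any day. The list is one of known neuronal REST genes and was written with earlier results of these data known, so its count describes these genes and is no independent evidence.

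The REST targets with a member fall into several roles. Among genes of cell contact, L1cam, a neural adhesion molecule, had chrX:73869350-73869670 inside the gene with a score of 1256.71, and its nearest H3ac was 44798, 51494 and 43833 bp away on days 2, 4 and 6. Celsr3, an atypical cadherin of axon guidance, had chr9:108826771-108827392 inside the gene near its start with a score of 924.13, at 17808, 17511 and 40293 bp from H3ac of days 2, 4 and 6. Neither gene had an H3ac peak at its ends. Atp2b2, a plasma membrane calcium pump of neurons and hair cells, had a member inside the gene, chr6:113852291-113852780, with a score of 984.85, and its H3ac distances were 37916, 111471 and 319404 bp on days 2, 4 and 6.

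Secretion genes formed the next group. Of 55 genes of synaptic and granule secretion, 6 (10.9%) had a member, 2 had a strong peak with H3ac and 21 had a weaker one without H3ac. None of the 6 had an H3ac peak at a gene end on any day. All except Syt6 are also on the REST list, so the counts of these lists share genes. Syt7, a calcium sensor of exocytosis, had the highest score, 859.99, in chr19:10403037-10403537 inside the gene, and its H3ac distance was 19006, 120190 and 120639 bp on days 2, 4 and 6. Snap25, shown above, had 434.46 and lay 33925 bp from day 2 H3ac and 176273 bp from that of day 4. The granins Chgb and Chga, proteins of dense-core granules, had members over their starts with 325.18 and 143.56. Ptprn, a granule membrane protein, had 179.55, and Syt6, another synaptotagmin, 133.07 at 1138 bp outside the gene.

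The cytoskeleton list had 3 of 19 genes with a member (15.8%), 0 with a strong peak with H3ac and 4 with a weaker one without H3ac. Stmn3, a microtubule-destabilising stathmin, had a pair of members, chr2:181302034-181302502 at 3957 bp outside the gene with a score of 979.51 and chr2:181313947-181314363 at its start with 201.12. Its day 2 H3ac peak at a gene end had a score of 71.47. Ina, the intermediate filament protein internexin, had 146.9 and day 2 H3ac 280 bp away. Stmn3 and Ina are also on the REST list. Nefh, the heavy neurofilament, had 125.34 in a member 1165 bp outside the gene, which lay inside the neighbouring gene Ap1b1. Mapk8ip2, a scaffold of JNK signalling and a gene of the REST list alone, had 446.07 in a member 113 bp from the gene and 335 bp from a day 2 H3ac peak, with 23039 bp to H3ac on day 4 and 95736 bp on day 6.

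**Figure D4:**
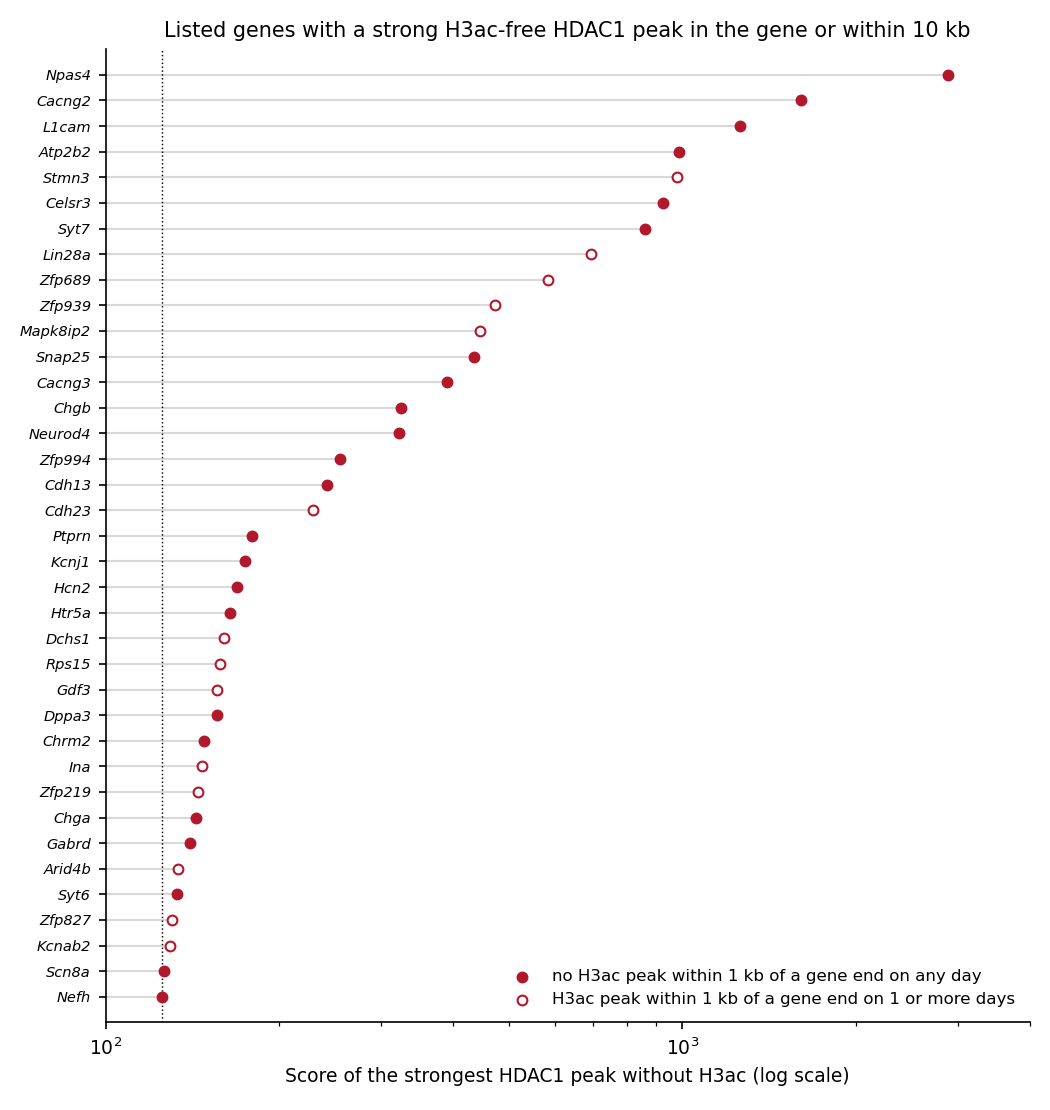
Score of the strongest HDAC1 peak without H3ac (x axis, log scale starting at 100) for listed genes that had one in the gene or within 10 kb, with the dotted line at the minimum score of the members. Filled points have no H3ac peak within 1 kb of either gene end on any day and open points have one on 1 or more days; Npas4 (2882.57) and Cacng2 (1605.44) lead.

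Ion channel genes of the Scn, Cacn, Kcn and Hcn families had members in 7 of 138 (5.07%), strong peaks with H3ac in 0 and weaker ones without H3ac in 37. From starts, 4 of 101 (3.96%) had a member within 10 kb. Cacng2 led, followed by its relative Cacng3, with 390.9 at 556 bp outside the gene and 265005, 191939 and 297834 bp from H3ac on days 2, 4 and 6. Kcnj1, an inward rectifier best known from kidney, had 174.13, the pacemaker channel Hcn2 168.57, the beta subunit Kcnab2 129.45 and the sodium channel Scn8a 126.07. Of the channel genes named here, each except Kcnab2 lacked H3ac at both gene ends on all 3 days.

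Of 92 neurotransmitter receptor genes, 5 (5.43%) had a member, through 4 distinct peaks, 3 had a strong peak with H3ac and 19 a weaker one without H3ac. Htr5a had 164.39, the muscarinic receptor Chrm2 148.26 at 9623 bp outside the gene, and the GABA receptor gene Gabrd 139.95.

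Among 101 cadherin and protocadherin genes 4 (3.96%) had a member, 0 had a strong peak with H3ac and 29 had a weaker one without H3ac. Besides Celsr3 these were Cdh13 (241.78), Cdh23 (228.52) and Dchs1 (160.2), each inside the gene. The median length of this list was 97.5 kb, and from annotated starts 1 of 29 had a member within 10 kb. Neural transcription factors had 2 of 34 (5.88%), namely Npas4 and Neurod4, a bHLH factor of neuronal differentiation. The Neurod4 member, chr10:130279927-130280394 with a score of 322.02, lay over the start and was 261964, 1254774 and 1368734 bp from H3ac on days 2, 4 and 6.

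Of 25 pluripotency genes, 3 (12%) had a member and 2 of these carried H3ac at a gene end on day 2. They were reached through 2 distinct peaks, while 1 gene of the list had a strong peak with H3ac and 3 had a weaker one without H3ac. Lin28a, an RNA-binding protein that blocks let-7 processing, had its member 1347 bp outside the gene with a score of 695.34. The gene end carried H3ac on every day, with deposited scores of 327.64 on day 2, 152.76 on day 4 and 125.78 on day 6, which rank peaks within their own lists only. Dppa3 and Gdf3, neighbours in a cluster of stem cell genes, shared chr6:122618499-122618815 with a score of 156.04, 7609 bp from Dppa3 and 8412 bp from Gdf3. Gdf3, a TGF-beta family ligand, had an H3ac peak of score 538.31 at an end on day 2.

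The remaining lists are read against the 1.43% of all protein-coding genes with a member, and in those of 26 to 81 genes counts of 0 to 2 do not set them apart from it. Mesendoderm genes had 0 of 26 and germ line and meiosis genes 0 of 28. Olfactory receptor genes, which are short (median 0.95 kb), had 0 of 1110. Of 397 Zfp genes, which encode zinc finger proteins, 5 (1.26%, near the share of all genes) had a member, the highest being Zfp689 with 583.65 at 5733 bp outside the gene, followed by Zfp939 with 473.56 and Zfp994 with 255.13. Zfp219 (144.28) and Zfp827 (130.09) completed them. Of 36 genes of REST and the class I HDAC complexes, 1 (2.78%) had a member, Arid4b of the Sin3 complex with 133.4, 1 had a strong peak with H3ac and 4 had a weaker one without H3ac. Ribosomal protein genes had 2 of 81 (2.47%), among them Rps15, whose member (157.74) lay inside the neighbouring gene Apc2.

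**Figure D5:**
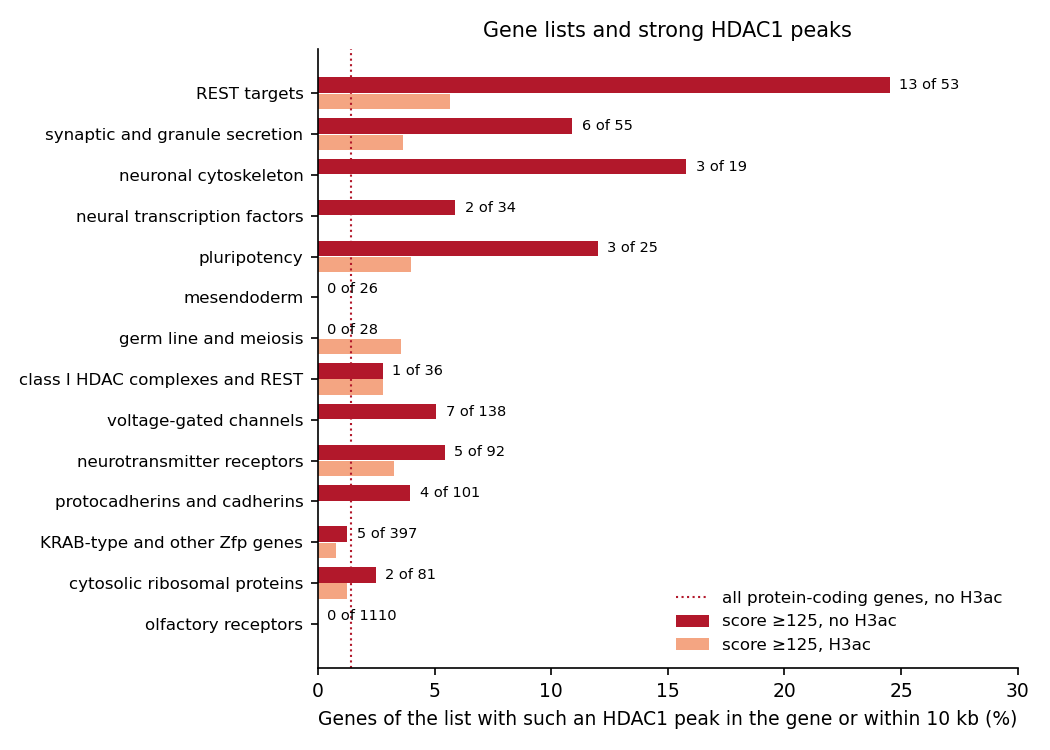
Percent of the genes of each list (x axis) with a strong HDAC1 peak without H3ac (red, with counts) or with H3ac (orange) in the gene or within 10 kb; the dotted line is the share of all protein-coding genes for peaks without H3ac, 1.43%. REST targets have the highest share, 13 of 53, and 3 lists have no such gene.

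Other genes outside these lists had more than 1 member, counting those in the gene or within 10 kb. Camta1 (802.246 kb long) had 4, with scores of 177.74, 874.71, 510.84 and 3100, and an H3ac peak at a gene end on every day. Megf11 had 3, all between 127.68 and 152.52. Celf4 (609.18 and 3100), Xkr6 (1672.81 and 1803.01), Rbfox3 (1450.75 and 127.54), Myo18b (1116.87 and 140.2) and Disp3 (455 and 130.2) had 2 each, as did Stmn3. Rbfox3 encodes the splicing factor known as NeuN, a standard marker of neurons, and neither it nor Celf4 had an H3ac peak at a gene end on any day. Further genes hit by high scorers were picked for their roles after their values were seen. They were Unc5a (1404.99), a netrin receptor, and Nsf (1127.37), a general ATPase of vesicle fusion. Cadm3 (845.62), a synaptic adhesion molecule, and Insm2 (772.52), a zinc finger factor of neuroendocrine cells, were the others. The Cadm3 member also lay in Aim2. Genes not picked in this way were hit at like scores, among them Trappc9 (1412.86), Vrk3 (1320.55), Nsun3 (810.58) and Tex33 (806.32).

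Genes with a member carried H3ac at their ends about as often as genes at large. Of the 310 genes, 42.6% (37.2 to 48.1%) had an H3ac peak within 1 kb of an end on day 2, 39.4% on day 4 and 19.4% (15.3 to 24.1%) on day 6, and 47.7% had none on any day. Over all 21631 genes the shares were 41.0%, 38.4% and 23.6%, and 51.7% had none. For the 189 genes with a member inside, counted by any shared base rather than by midpoint, the shares were 37.0%, 33.3% and 17.5%. For the 248 genes with a strong HDAC1 peak with H3ac they were 77.4%, 78.6% and 47.2%, where the choice of those peaks already required H3ac at the peak. Among the 13 REST targets with a member, 9 had no H3ac at either end on any day, and among the 6 secretion genes all 6. Members were chosen for lacking H3ac, and those of Snap25, Chgb and Chga lay at a gene end. The absence of H3ac at such ends is therefore partly set by the choice. These counts share Syt7, Snap25, Chgb, Chga and Ptprn and are not separate groups. The same share for listed genes without a member is not given here.

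A few members were narrow and lay near genes of large families. Of 27 members under 250 bp wide, 4 had a score of 500 or more, among them chr7:10325545-10325787 near Vmn1r66 (1008.7) and chr7:26489621-26489862 near Nlrp4a (995.39), which belong to families of closely similar genes and were picked out after their values were seen. How reads with several equally good positions were treated is not given in the sources used here, and its part in these peaks was not tested.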

How the data were processed

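ChIP-seq peak lists of 4 libraries were used, HDAC1 on day 2 and H3ac on days 2, 4 and 6, grouped by the labels. Reads were aligned with Bowtie 0.12.8 to mm10, per the submitters' processing notes. Members were HDAC1 peaks of score 125 or more without H3ac overlap. Column 5 of each deposited list is a score, given by the authors, with peak names that begin with MACS per the files. The sources used here do not give the caller's version, cut-off, use of the inputs or read depth, so an absent peak does not show absent acetylation. Members and lists were chosen with earlier results of these data known, and genes outside the lists were named by rank of score or as stated. Of 5286 HDAC1 peaks, 4 on other chromosomes (3 on Y, 1 on a contig) were left out. Overlap meant 1 bp or more, and distances run between the nearest edges (from peak midpoints for locations, starts and the nearest gene). Genes came from a RefSeq table of GRCm38.p6 (21631 protein-coding genes, 14 lists) and promoters from RefSeq. Shares have 95% Wilson intervals (statsmodels 0.14.6, Python 3.11.15), scripts were tested on simulated data, and no p-value was computed because no group had replicates. A few listed genes are counted but not reported here by name.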

Additional observations from a re-analysis of the deposited data

How the results depend on the processing

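With a lower score minimum of 100 there were 650 members, and with 150, H3ac lists cut to the higher-scoring 50%, a margin of 1 kb or 10 kb around H3ac, or a width of at least 250 bp there were 281, 421, 371, 299 and 366, against 393 reported. The share at gene ends was 7.12% with 0.5 kb, 19.3% with 2.5 kb and 16.0% with genes of all types. The share in gene bodies was 34.9% with 2.5 kb, and the share outside genes was 39.4% with genes of all types. The share beyond a given distance from H3ac was 84.2% for 5 kb, 63.4% for 20 kb and 86.5% for 10 kb with the higher-scoring 50% of H3ac peaks. The lists below give counts of genes. With a score minimum of 100 (all genes 2.39%) secretion genes had 11, neural transcription factors 4, germ line genes 1, HDAC complexes 2 and transmitter receptors 8. With 150 (all genes 0.975%) the cytoskeleton had 1, HDAC complexes 0, receptors 1, Zfp genes 3 and ribosomal proteins 1. Within 1 kb of the gene (all genes 0.948%) pluripotency had 0, Zfp genes 3 and ribosomal proteins 0. Within 25 kb (all genes 2.33%) mesendoderm had 1, channels 11, Zfp genes 9 and olfactory receptors 4. Counted from starts (all genes 0.735%), only genes with an annotated start could count. REST targets had 8 of 37, pluripotency 1 of 16, HDAC complexes 0 of 26 and channels 4 of 101. Receptors had 2 of 68, cadherins 1 of 29 and ribosomal proteins 1 of 61. With members at least 250 bp wide HDAC complexes had 0. With 1 mismatch the RE1 left part stood in 88.2%, the right part in 100%, the E box in 82.4% and the E2F type in 88.2% of promoters at members, so at 1 mismatch these short motifs are present nearly throughout. The cause of these shifts was not tested. The width and start-based alternatives and 2 mismatches were chosen after seeing the data. In total 85 values stayed near the reported one and 38 moved. For counts, near meant within a set ratio, so that 281 members against 393 stayed near. For shares it meant inside the Wilson interval of the reported share, so the total mixes unlike rules. No paired analysis was possible because each target and day has 1 library.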
